A study of Aedes aegypti with 7 samples.

Results

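miR-184 (aae-miR-184) of the yellow fever mosquito Aedes aegypti was followed in the female fat body through 15 small RNA libraries and 6 AGO1 CLIP-seq libraries. It is 1 of the 124 mature miRNAs in the deposited small RNA table, and 2 of the 100836 deposited AGO1 peaks carry its precursor's name, aae-mir-184. It was chosen by its measured level in these libraries, as the miRNA with the second largest share of reads after miR-8-3p, so its rank and its share are given as a description. All females were adults of the strain UGAL/Rockefeller. Small RNA libraries were made at 72 h post eclosion (PE, after emergence as an adult) and at 6, 24, 36 and 48 h post blood meal (PBM), and AGO1 CLIP-seq libraries at 24 h PBM and 72 h PE, with 3 replicates for each assay and time. Females 3 or 4 days old counted as 72 h PE, and others of their cage were then fed blood, per the labels' protocols. No unfed females of the later times were sampled, so the blood meal and the greater age cannot be told apart. Each n = 3 takes the replicates as independent, as the submitters describe them.

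A miRNA is a short RNA cut from a hairpin precursor and loaded into an Argonaute protein, which it guides to messenger RNAs that pair with it. In flies and mosquitoes AGO1 is the Argonaute that carries most miRNAs, and in CLIP-seq ultraviolet light fixes AGO1 to the RNA it touches before AGO1 is pulled down with an antibody. miR-184 is among the most conserved animal miRNAs. In Drosophila melanogaster it acts in the female germline and early embryo and represses saxophone, a receptor of the Dpp signal, the transcription repressor tramtrack, and K10, a gene of egg axis formation. In insects the fat body combines roles of liver and fat store, and in mosquitoes it makes yolk proteins after a blood meal.

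The small RNA libraries held 2112431 to 6317980 miRNA reads and the CLIP-seq libraries 69424 to 132758 counts in peaks. In the CLIP libraries the peaks of vitellogenin-A1 (AAEL010434), the major yolk protein precursor made by the fat body, held 1931, 2394 and 1723 counts at 24 h PBM, against 30, 71 and 90 at 72 h PE. The other genes of the fat body list held too few counts for a test. Putative vitellogenins held 4 counts at 24 h PBM against 5 at 72 h PE (AAEL006966) and 1 against 2 (AAEL012311). An apolipophorin-III (AAEL008789) held 7 against 2. The small RNA table holds miRNAs alone, so the tissue of those libraries was not checked on messenger RNAs. Among miRNAs known from other tissues, the 16 of the ovary and embryo list summed to 4490 to 12626 counts scaled to a common total (CPM) at 24 h PBM and 2076 to 2609 CPM at 72 h PE, with 1 of the 16 at 0 in every library. They summed to 779 to 1105 CPM at 6 h, 10141 to 16276 CPM at 36 h and 6943 to 17884 CPM at 48 h PBM. The 2 muscle miRNAs summed to 1075 to 1329 CPM at 24 h PBM and 416 to 569 CPM at 72 h PE, so that both lists were higher at 24 h PBM without overlap. The muscle sum was 589 to 927 CPM at 6 h, 501 to 833 CPM at 36 h and 729 to 979 CPM at 48 h PBM. The midgut list overlapped, with 36969 to 39082 CPM at 24 h PBM and 9907 to 46685 CPM at 72 h PE. That list includes miR-275-3p, which alone held 24836 to 31403 CPM at 24 h PBM and 6126 to 7712 CPM at 72 h PE. Most of the midgut sum at 24 h PBM was thus this 1 miRNA. The neural list overlapped as well, with 91.2 to 111 CPM at 24 h PBM and 63.5 to 110 CPM at 72 h PE. The library 48 h PBM replicate 3 held 21.3% of miR-281-5p, a miRNA known from the mosquito midgut, among its miRNA reads. The part of other tissues in the values of miR-184 was not tested.

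miR-184 held a large and uneven share of the miRNA reads. It took 6.38%, 9.03% and 14.8% of them at 72 h PE. At 6 h PBM it took 4.35%, 6.89% and 11.9%, and at 24 h PBM 4.53%, 5.11% and 7.22%. The 24 h PBM libraries were the closest to each other of those 3 times, and all 3 lay below the median library of 72 h PE. It took 3.20%, 7.16% and 11.9% at 36 h PBM, and 6.61%, 8.79% and 9.93% at 48 h PBM. The lowest and the highest share of the 15, 3.20% in 36 h PBM replicate 1 and 14.8% in 72 h PE replicate 3, differed 4.61-fold. These shares rest on 67649 to 702217 reads of miR-184 in a library, and their 95% Wilson intervals were at most 0.0662 percentage points wide, which covers counting error only.

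**Figure D1:**
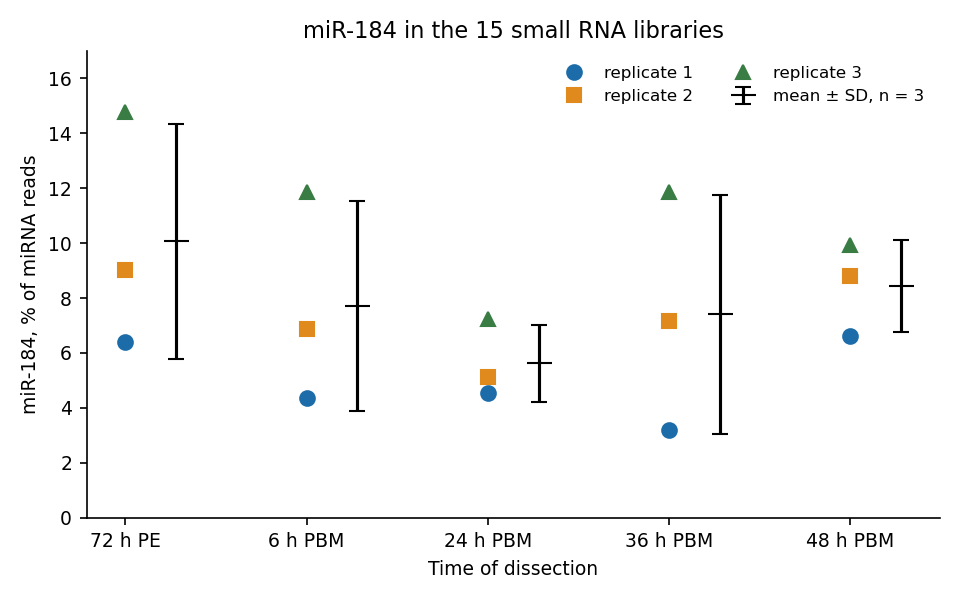
Share of miRNA reads taken by miR-184 (y axis, %) at the 5 times (x axis), 1 point for each of the 15 libraries with its replicate number as the symbol, and the mean ± SD of 3 beside them. At every time the library numbered 3 lies highest and the library numbered 1 lowest, between 14.8% in 72 h PE replicate 3 and 3.20% in 36 h PBM replicate 1.

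By mean share of miRNA reads the order of the times was 72 h PE with 10.1% ± 4.28, 48 h PBM with 8.44% ± 1.69, 6 h PBM with 7.70% ± 3.82, 36 h PBM with 7.41% ± 4.34 and 24 h PBM with 5.62% ± 1.42 (SD, n = 3). The ranges of all 5 times overlapped. In TMM-scaled counts, which set the bulk of the miRNAs level between libraries, the means were 110937 ± 46502 CPM at 72 h PE, 77473 ± 40874 CPM at 6 h PBM, 58604 ± 19188 CPM at 24 h PBM, 73583 ± 45121 CPM at 36 h PBM and 76303 ± 17559 CPM at 48 h PBM. On that scale 6 h PBM stood above 48 h PBM, which is the reverse of their order by share, and 72 h PE and 24 h PBM kept the ends. In bulk tissue such as this, fewer cells of a type and less RNA per cell cannot be told apart.

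miR-184 ranked 2nd in 9 of the 15 libraries, 3rd in 5 and 6th in 36 h PBM replicate 1. miR-8-3p, which acts in fat body and egg development in Aedes aegypti, was first in all 15 with 36.3% to 61.8% of the miRNA reads. Where miR-184 was 3rd, bantam-3p, a growth and survival miRNA in Drosophila, was second in 4 libraries and miR-281-5p in 48 h PBM replicate 3. bantam-3p took 5.31% to 8.51% over the 15 libraries with a mean of 6.64%, against 7.85% for miR-184. The other 7 of the 10 most abundant miRNAs ranked by mean share were miR-317, which varied from 0.904% to 7.14%, followed by miR-11-3p with a mean of 2.99%, miR-14 with 2.95%, miR-276-3p with 2.83%, miR-2940-3p with 2.68%, miR-281-5p with 2.54% and miR-8-5p with 1.76%. Without 48 h PBM replicate 3 the mean share of miR-281-5p was 1.20%. miR-14 acts in fat metabolism in Drosophila, and miR-2940 is a mosquito miRNA.

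No comparison between times called miR-184 in the model over all 15 libraries with time as its only term (edgeR's quasi-likelihood test, Benjamini-Hochberg adjustment over 114 miRNAs, 2-sided, threshold 0.05). Over the 5 times its adjusted p was 0.52 in edgeR, while 54 of 114 miRNAs (47.4%) were called. At 24 h PBM it averaged 58604 CPM against 110937 CPM at 72 h PE, a log2 change of -0.92 (SE 0.49, 95% interval -1.98 to 0.14, edgeR adjusted p = 0.203), and 23.7% of the miRNAs were called in that comparison. The 24 h PBM libraries lay at 45565, 49609 and 80637 CPM and the 72 h PE libraries at 71595, 98960 and 162257 CPM, so that the highest of 24 h PBM stood above the lowest of 72 h PE. The interval includes 0. A model with the replicate number as a block called this comparison, with a log2 change of -0.87 (edgeR adjusted p = 0.00684). It called 33 of the 114 miRNAs there. Without 72 h PE replicate 3, the highest library, the log2 change was -0.50 (edgeR adjusted p = 0.592), and over all 15 libraries left out in turn it reached -1.22 at the lowest.

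The other times after the blood meal had log2 changes nearer to 0 in the model of all 15 libraries. At 6 h PBM the libraries held 39970, 71409 and 121040 CPM, a log2 change of -0.52 against 72 h PE (SE 0.49, edgeR adjusted p = 0.504, 12.3% of the miRNAs called). At 36 h PBM they held 31587, 67874 and 121287 CPM, a log2 change of -0.59 (SE 0.49, edgeR adjusted p = 0.431, 26.3% called). At 48 h PBM they held 59216, 75395 and 94298 CPM, a log2 change of -0.54 (SE 0.49, edgeR adjusted p = 0.439, 24.6% called). The means of all 4 times after the meal lay below 72 h PE, and each group overlapped it. The 4 comparisons share the 72 h PE libraries, and without 72 h PE replicate 3 their log2 changes were -0.08 for 6 h, -0.17 for 36 h and -0.10 for 48 h PBM. Single libraries moved them the other way as well. Without 6 h PBM replicate 3 the log2 change at 6 h was -0.96 (edgeR adjusted p = 0.316), beyond the -0.90 of 24 h PBM in that fit. Without 36 h PBM replicate 3 the log2 change at 36 h was -1.13 (edgeR adjusted p = 0.120), also beyond the -0.90 of 24 h PBM there. The order of the times by size of change thus turned with 1 library in this model, which has no term for the replicate number. At every time the library numbered 3 was the highest, so leaving it out of 1 time lowers that time against the rest. Among the libraries numbered 1 and 2, 24 h PBM held 45565 and 49609 CPM, against 71595 and 98960 CPM at 72 h PE.

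Neighbours in the order of levels did not differ beyond their spread either. Against 6 h PBM the log2 change of miR-184 was -0.40 at 24 h PBM (edgeR adjusted p = 0.674, 14.9% of the miRNAs called), -0.07 at 36 h PBM (edgeR adjusted p = 0.930, 25.4% called) and -0.02 at 48 h PBM (edgeR adjusted p = 0.973, 34.2% called). Against 24 h PBM it was 0.33 at 36 h PBM (edgeR adjusted p = 0.721, 17.5% called) and 0.38 at 48 h PBM (edgeR adjusted p = 0.550, 25.4% called). Between 48 h and 36 h PBM it was 0.05 (edgeR adjusted p = 0.924). That last comparison called 0 of 114 miRNAs (0%) in edgeR, with 24 at an unadjusted p under 0.05, 16 called by DESeq2 and 7 by limma. Each of these 6 changes had an SE of 0.49, and its sign is not settled at this spread.

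The spread of miR-184 between replicates was wide for so abundant a miRNA. Its standard deviation of log2 CPM within a time was 0.67, against a median of 0.33 over the 114 miRNAs tested and 0.25 over the 13 with a mean share of at least 1%. Among those 13 it ranked second, after miR-281-5p with 1.81, while bantam-3p had 0.19 and miR-8-3p 0.16. The highest share of a time was 3.71 times the lowest at 36 h PBM, 2.73 times at 6 h PBM and 2.31 times at 72 h PE, but 1.60 times at 24 h PBM and 1.50 times at 48 h PBM. The difference in spread between times was not tested.

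**Figure D2:**
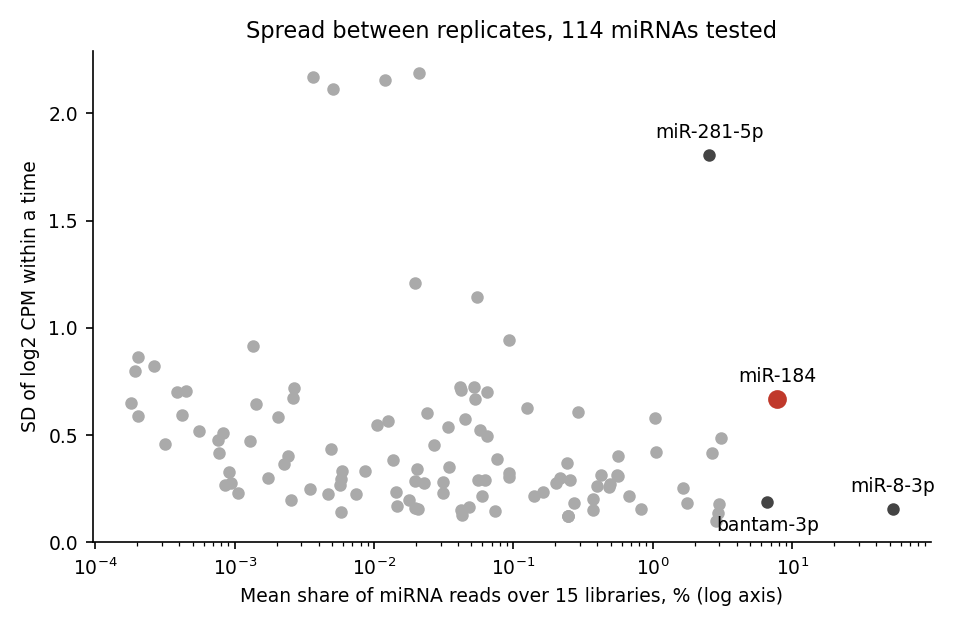
Standard deviation of log2 CPM within a time (y axis, pooled over the 5 times) against the mean share of miRNA reads over 15 libraries (x axis, %, log axis), 1 point for each of 114 miRNAs. miR-184, in red at a share of 7.85% and an SD of 0.67, lies above the other abundant miRNAs except miR-281-5p at 1.81.

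The replicate numbers sorted miR-184 the same way at every time. The library numbered 3 was the highest and the library numbered 1 the lowest at all 5 times, with 80637 to 162257 CPM in the 5 libraries numbered 3, 49609 to 98960 CPM in those numbered 2 and 31587 to 71595 CPM in those numbered 1. The median shares were 11.9%, 7.16% and 4.53% for the numbers 3, 2 and 1. Of the 114 miRNAs, 5 kept 1 order of the 3 numbers at all 5 times, namely miR-184, miR-1889-5p and miR-2940-5p with 3 highest and 1 lowest, miR-252-3p with 1 highest and 3 lowest, and miR-998 with 2 highest and 1 lowest. For 16 of the 114 the same number was highest at all 5 times. Among the 5 libraries of each number, that of 72 h PE had the highest CPM of miR-184. The labels do not say what a replicate number marks. With the number as a block, miR-184 was called over the 5 times (edgeR adjusted p = 0.0246), as were 68 of the 114 miRNAs in all. It was also called at 24 h and 36 h PBM against 72 h PE, but not at 6 h or 48 h PBM. The blocked model called 33 of the 114 miRNAs at 24 h PBM and 44 at 36 h PBM.

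The miRNAs whose levels followed those of miR-184 most closely over the 15 libraries were named by the Pearson correlation of log2 CPM, given here as a description over libraries that share their depth and scaling. They were miR-31 with r = 0.88 (Spearman's rho 0.89), miR-10 with r = 0.85 (0.86), miR-11-5p with r = 0.75 (0.74), miR-137 with r = 0.75 (0.53) and miR-125-5p with r = 0.74 (0.74). With time means taken out, r was 0.91 for miR-31, 0.88 for miR-10, 0.81 for miR-11-5p, 0.87 for miR-137 and 0.85 for miR-125-5p. The likeness thus held between replicates within a time, and does not show a shared course over the times. Over the 113 other miRNAs the median r, with time means left in, was 0.04. miR-10 lies in the Hox gene cluster of insects, miR-137 is a neural miRNA, miR-125 belongs to the let-7 complex of developmental timing in Drosophila, and miR-11 limits cell death genes in Drosophila. Their levels were far below that of miR-184. miR-31 lay between 522 and 1179 CPM, miR-10 between 3172 and 8782 CPM, miR-11-5p between 2926 and 7613 CPM, miR-125-5p between 1380 and 3100 CPM and miR-137 between 25.7 and 69.6 CPM.

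miR-137 is also 1 of the 4 miRNAs of a list of neural miRNAs, whose sum lay between 53.7 and 124.3 CPM over the 15 libraries and correlated with miR-184 at r = 0.56. The sums of the ovary and embryo list (16 miRNAs, r = -0.15), the midgut list (7 miRNAs, r = -0.12) and the muscle list (2 miRNAs, r = -0.01) did not follow it as closely. By mean share of miRNA reads miR-137 was the largest of the neural list, with 0.0049%. The others were miR-7 with 0.0026%, miR-210 with 0.0014% and miR-124 with 0.00086%. Since miR-137 was named for its correlation with miR-184, the r of the neural sum in part repeats that choice. The midgut list includes miR-275-3p, which alone had r = -0.63 with miR-184. The part of neural tissue in the level of miR-184 was not tested.

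Of these 5, miR-11-5p was called at 24 h PBM against 72 h PE, a comparison that called 23.7% of all miRNAs tested. It averaged 3726 CPM against 6708 CPM, a log2 change of -0.85 (SE 0.21, edgeR adjusted p = 0.0101). That size is close to that of miR-184 with a smaller error. The others were not called, with log2 changes of -0.52 for miR-10, -0.43 for miR-125-5p, -0.22 for miR-31 and -0.01 for miR-137. miR-11-3p, the more abundant arm of miR-11, had a log2 change of -0.19 (edgeR adjusted p = 0.415). The least alike were miR-315-5p with r = -0.68 (rho -0.55), miR-33 with r = -0.67 (rho -0.66) and miR-275-3p with r = -0.63 (rho -0.64). miR-33 sits in the gene of the sterol regulator SREBP in animals and acts in lipid metabolism, and in Aedes aegypti miR-275 is required for digesting blood and maturing eggs. miR-275-3p averaged 29161 CPM at 24 h PBM, against 7027 CPM at 72 h PE, a log2 change of 2.05 (SE 0.21, edgeR adjusted p = 7.92e-06).

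**Figure D3:**
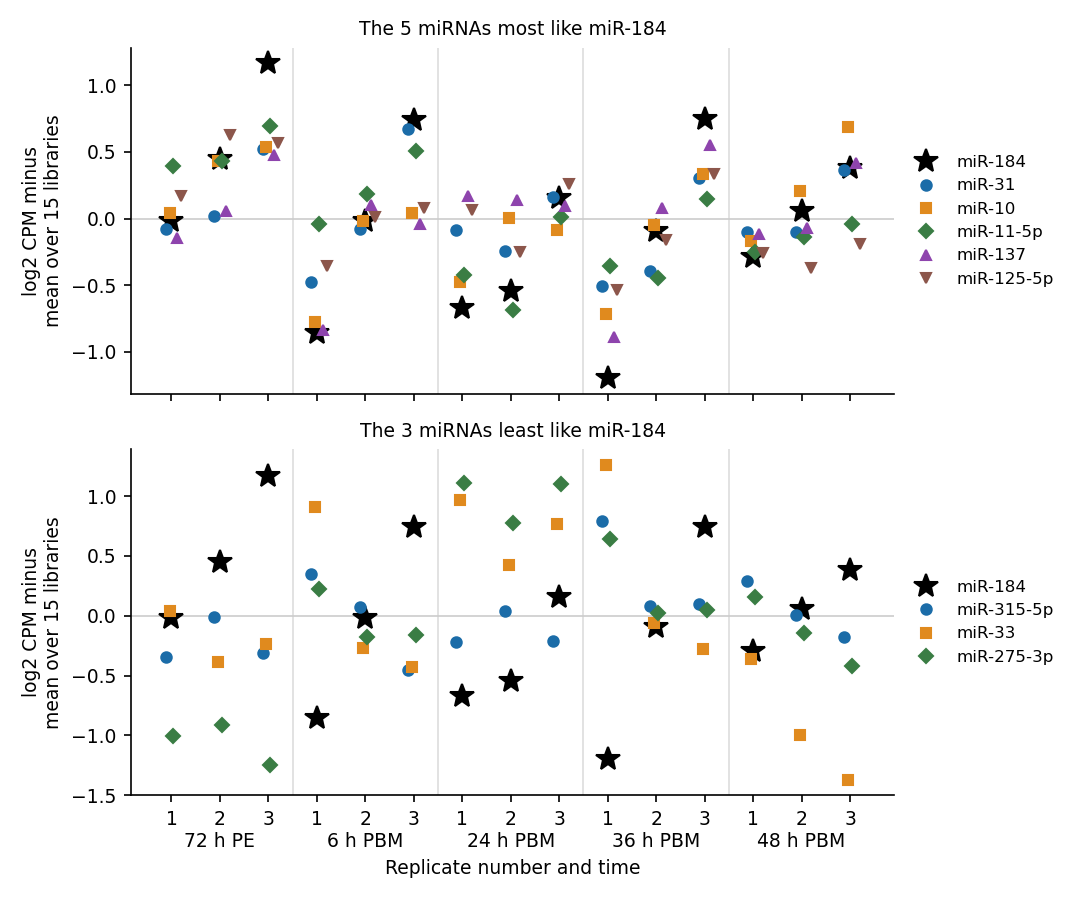
log2 CPM minus each miRNA's mean over 15 libraries (y axis) in every library (x axis, replicate number within time), for miR-184 as black stars with the 5 miRNAs most like it above and the 3 least like it below. miR-31, with r = 0.88, lies on the same side as miR-184 in the libraries numbered 3, and miR-275-3p, with r = -0.63, is low at 72 h PE and high at 24 h PBM.

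On AGO1, miR-184 was among the RNAs most often recovered. Its larger peak lies on the minus strand of AaegL3 supercontig 1.496, from 143377 to 143401 in the deposited positions, is annotated to the miRNA precursor, and held 12835 counts, which ranked 4th of the 100836 peaks. A second peak from 143416 to 143438 held 1 count, in 72 h PE replicate 3, so that 99.99% of the precursor's counts lay in the first. On the minus strand the first peak is the one nearer the 3′ end. Apart from these, no peak that starts within 10000 bases held more than 3 counts. Over the 6 libraries aae-mir-184 held 12836 counts, which is 9.96% of the 128924 counts in miRNA peaks and ranked 4th of 84 precursors.

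The share of AGO1 miRNA counts held by miR-184 was lower after the blood meal. It was 7.32%, 8.82% and 7.91% at 24 h PBM (8.01% ± 0.755, SD, n = 3), against 12.1%, 13.6% and 12.5% at 72 h PE (12.7% ± 0.768). All 3 libraries of 24 h PBM lay below all 3 of 72 h PE, and the 95% Wilson intervals of counting error ended at 9.21% for the highest of 24 h PBM and began at 11.7% for the lowest of 72 h PE. The 2-sided exact permutation test gave p = 0.1, the smallest that 3 against 3 can give, so the threshold could not be reached. Groups without overlap were common among the precursors on AGO1: of the 50 tested, the share of miRNA counts was lower in all libraries of 24 h PBM than in any of 72 h PE for 14, miR-184 among them, and higher for 7. Both miR-34, with 12.6% to 13.2% at 24 h PBM and 15.7% to 16.2% at 72 h PE, and miR-8, with 10.4% to 11.9% and 12.7% to 12.9%, were among the 14. miR-184 ranked 5th, 4th and 4th among the precursors at 24 h PBM, against 3rd, 2nd and 3rd at 72 h PE.

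That share falls when others grow, and the counts behind it were 2151, 1829 and 1914 at 24 h PBM, against 2598, 2563 and 1781 at 72 h PE. The precursor of miR-305, which shares a cluster with miR-275 and acts in gut stem cells in Drosophila, held 14.1%, 17.5% and 17.5% of the miRNA counts at 24 h PBM, against 1.57%, 2.13% and 2.70% at 72 h PE. The precursor of miR-275 held 7.45%, 7.50% and 6.86%, against 1.87%, 2.15% and 2.31%. With both left out of the total, miR-184 held 9.33%, 11.8% and 10.5% at 24 h PBM, against 12.5%, 14.2% and 13.1% at 72 h PE, and the groups still did not overlap (exact permutation p = 0.1). The log2 change of the share was -0.67 with them in the total and -0.34 with them out. The first precursor at 72 h PE was miR-34, a miRNA linked to ageing in Drosophila, which averaged 12.9% at 24 h PBM and 16.0% at 72 h PE.

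Against all genes and precursors on AGO1, the change of miR-184 took its sign from the scaling. With TMM scaling over 687 genes and precursors, of which 170 (24.7%) were called, it averaged 42338 ± 6243 CPM at 24 h PBM and 38531 ± 7948 CPM at 72 h PE, a log2 change of 0.14 (SE 0.28, edgeR adjusted p = 0.732), and the groups overlapped. Scaled to library totals the log2 change was -0.66 (SE 0.21, edgeR adjusted p = 0.0132), which was called. That scaling called 294 of the 687 features, more than the 170 under TMM. The median of all 687 features moved as well, with a log2 change of 0.07 under TMM and -0.75 under library totals, so that miR-184 stood 0.07 and 0.09 above that median on the 2 scales. Of all calls 53.5% were of higher features under TMM and 18.7% under library totals. Within a table of miRNA precursors alone the log2 change was -0.31 (SE 0.14, edgeR adjusted p = 0.231), 0.45 below the median of the 51 precursors tested there. In the table of genes and precursors, 8 of the 50 precursors tested were called higher at 24 h PBM, and 0 were called lower in edgeR, at an unadjusted p under 0.05 or in DESeq2. Their median log2 change was 0.54. With library totals 4 were called higher and 2 lower, miR-184 among the 2, and the median was -0.25.

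In both assays the mean share of miR-184 was lower at 24 h PBM, and the replicates lay closer together on AGO1. The coefficient of variation of the share was 9.42% at 24 h PBM and 6.03% at 72 h PE on AGO1, against 25.2% and 42.6% in small RNA. This difference between the assays was not tested, nor set against that of other precursors. The share at 24 h PBM was 0.63 times that at 72 h PE on AGO1 and 0.58 times in small RNA (geometric means). The small RNA share overlapped between the 2 times, with an exact permutation p = 0.2. On AGO1 the library numbered 2 was the highest and that numbered 1 the lowest at both times, an order other than that in the small RNA libraries. No label ties a CLIP-seq library to a small RNA library of the same number.

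**Figure D4:**
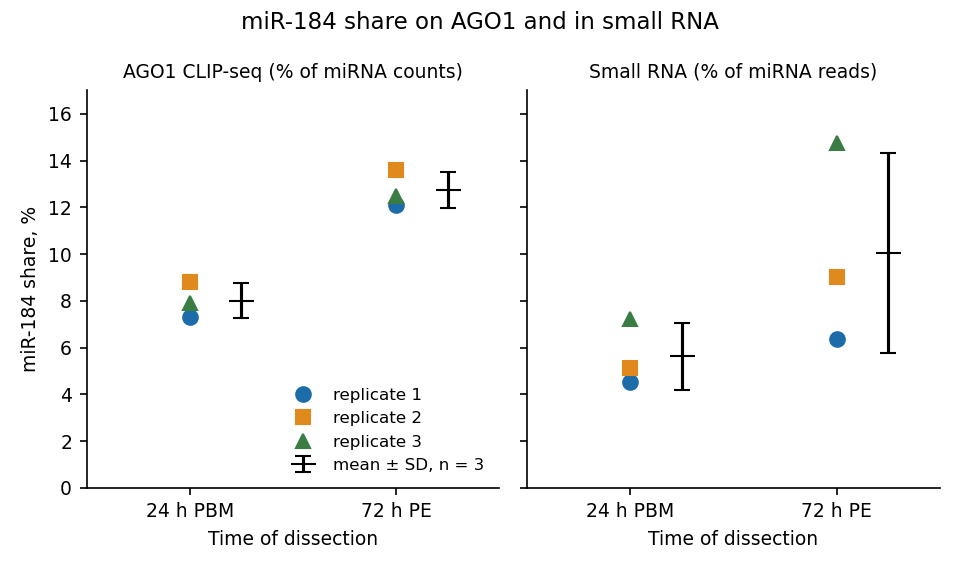
Share of miR-184 (y axis, %) among AGO1 CLIP-seq miRNA counts on the left and among small RNA miRNA reads on the right, at 24 h PBM and 72 h PE, with 1 point for each library and the mean ± SD of 3. On AGO1 the 24 h PBM libraries (7.32% to 8.82%) lie below the 72 h PE libraries (12.1% to 13.6%), and in small RNA they overlap.

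The share on AGO1 set against the share in small RNA, both arms of a precursor summed, gave a difference of log2 shares of 0.54 at 24 h PBM and 0.42 at 72 h PE. The change between the times was 0.11 (2-sided exact permutation test over 400 arrangements, p = 0.85), and no difference in it was detectable with 3 libraries a group. Without small RNA 72 h PE replicate 3 it was -0.21, without small RNA 24 h PBM replicate 1 it was -0.03, and its largest value with 1 library left out was 0.40. With miR-8 left out of both totals the log2 differences turned to -0.52 at 24 h PBM and -0.60 at 72 h PE. miR-8 held 57.3% and 57.1% of the small RNA reads but 11.1% and 12.9% of the AGO1 counts at these times. Whether the share of miR-184 on AGO1 lies above or below its share in small RNA thus rests on whether miR-8 is counted in the totals.

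Among the precursors abundant at both times miR-184 had the highest ratio of mean shares, AGO1 over small RNA, which was 1.43 at 24 h PBM and 1.27 at 72 h PE. Of the 9 precursors with at least 1% of the small RNA reads at both times, the other 8 had ratios below 1 at both. The next was bantam with 0.493 and 0.541, followed at 24 h PBM by miR-11 with 0.384 and at 72 h PE by miR-100 with 0.466. The precursor of miR-275, with 2.88% of the small RNA reads at 24 h PBM but 0.638% at 72 h PE, fell outside these 9 and had higher ratios than miR-184, 2.53 and 3.31. miR-8 had 0.194 and 0.225, and miR-317 had 0.00473 and 0.00268. With miR-8 left out of both totals, miR-184 was still first of the other 8, with 0.687 at 24 h PBM and 0.633 at 72 h PE, ahead of bantam with 0.237 and 0.265. Over all 74 precursors found in both assays the median ratio was 2.40 at 24 h PBM and 3.84 at 72 h PE, and miR-184 ranked 44th and 49th. These ratios are a description with no test, and miR-184 was chosen on the small RNA share in them. The 8 others were picked by a minimum of that same share, the denominator, which favours low ratios.

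**Figure D5:**
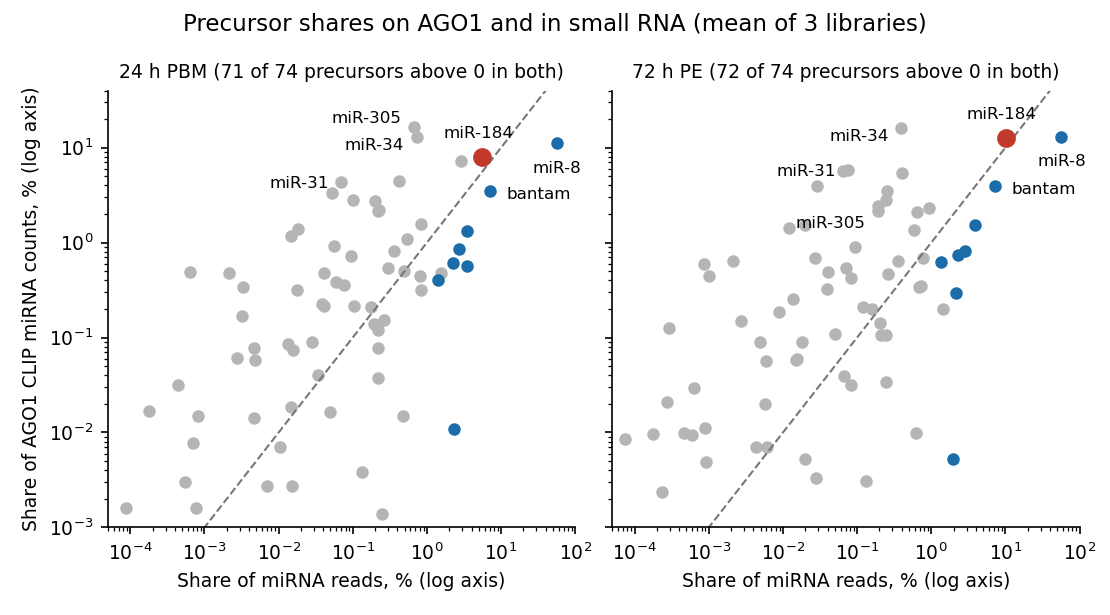
Share of AGO1 CLIP-seq miRNA counts (y axis, %, log axis) against share of small RNA miRNA reads (x axis, %, log axis) for precursors found in both assays, as means of 3 libraries, at 24 h PBM on the left and 72 h PE on the right, with equality dashed. miR-184 in red lies above the line with ratios of 1.43 and 1.27, the 8 other precursors with at least 1% of small RNA reads at both times in blue lie below it, and those with a mean of 0 in an assay (3 and 2) are not drawn.

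The precursor of miR-31, the miRNA most like miR-184 in the small RNA libraries, held 4.33% of the AGO1 miRNA counts at 24 h PBM and 5.83% at 72 h PE, against 0.0694% and 0.0759% of the small RNA reads. The precursor of miR-10, second in that list, held 0.0148% and 0.00976% of the AGO1 counts, against 0.470% and 0.629% of the small RNA reads. The 2 miRNAs most like miR-184 in small RNA level thus lay on opposite sides of equality between the assays.

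The CLIP table names few genes of the miRNA pathway. A gene deposited under the name dicer-1 (AAEL006794) held 19, 20 and 13 counts at 24 h PBM, against 9, 8 and 6 at 72 h PE. Whether this gene or the second of that name cuts miRNAs from their precursors was not checked. The log2 change of AAEL006794 was 1.53 (SE 0.52, edgeR adjusted p = 0.0309), a call among the 24.7% of features called with TMM scaling. That call was lost with library totals (0.74, edgeR adjusted p = 0.264) and in DESeq2 (1.52, adjusted p = 0.058). The gene named ebna2 binding protein P100 (AAEL000293), a name given to Tudor-SN proteins, held 229 counts in the 3 libraries of 24 h PBM, against 487 in those of 72 h PE. Its log2 change was -0.84 (SE 0.37, edgeR adjusted p = 0.0942). With library totals it was called lower (-1.61, edgeR adjusted p = 0.00111), as were 239 of the 687 features in all. A second gene named dicer-1 (AAEL001612) held 14 counts in all, an exportin (AAEL009392) 12 and loquacious (AAEL008687), the partner of Dicer-1, 6, too few for the test. No gene name in the table matched the other 7 names searched, among them argonaute, drosha and GW182, nor the 3 Drosophila targets of miR-184.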

How the data were processed

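The authors deposited, for 124 mature miRNAs named after miRBase release 21, raw read counts in 15 small RNA libraries. They also deposited RPM, which the authors scaled to each library's total reads. Counts of barcodes for each AGO1 peak and library, over 1 set of peaks, were deposited by the authors, on AaegL3 positions per the file headers. Whether those positions start at 0 or 1 is not stated. Tools named with no role, per the submitters' processing notes, are R 3.1.2, bedtools 2.17.0, Bowtie2 2.2.3 and TopHat2 2.0.14. Per the labels' protocols, TRIZOL extracts went into TruSeq small RNA libraries, and CLIP tissue received 900 mJ/cm2 of ultraviolet light.

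From the counts, 1 edgeR 4.0.16 model (R 4.3.3, TMM, filterByExpr, robust quasi-likelihood, no replicate term) covered all 15 small RNA libraries, with 114 of 124 miRNAs tested, and 1 covered the 6 CLIP-seq libraries, with the peaks of a gene or precursor added up. Tests are 2-sided with Benjamini-Hochberg adjustment at 0.05 over all features. Levels are TMM-scaled CPM, and log2 CPM for correlations have a prior count of 2. The script was tested on simulated data. DESeq2 1.42.0 and limma 3.58.1 (log2 of RPM plus 1) served as alternatives, with other scalings, filters, totals and each library left out. Shares used exact permutation tests. Wilson intervals cover counting error only, and intervals of log2 changes come from the edgeR fit, which includes the spread between replicates.

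Named in the text are miR-184, the 9 other miRNAs with the highest mean share, the 5 most and 3 least correlated with miR-184, its AGO1 peaks, and genes of a list of the miRNA machinery and of Drosophila targets that the CLIP table names. miR-305, miR-275, miR-34, miR-100, vitellogenin-A1 and the other genes of the fat body list were named after their values were seen. The member and the lists were chosen with earlier results of these data known. miR-31 and miR-10 on AGO1 were also looked up after the small RNA values were seen. The deposited table of predicted miRNAs was not used here.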

Additional observations from a re-analysis of the deposited data

How the results depend on the processing

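Against 72 h PE, the 4 changes of miR-184 kept their negative sign in every alternative run. The replicate number as a block gave adjusted p = 0.0246 over the 5 times in edgeR, and called 24 h PBM with a log2 change of -0.87 (adjusted p = 0.00684) and 36 h PBM with -0.68 (adjusted p = 0.0203). No other alternative changed the call of miR-184 against 72 h PE. The numbers were not taken as pairing the samples: of 30 same-numbered pairs of small RNA libraries 21 correlated above 0.1 in their deviations from the time means, with a lowest value of -0.74, and so did 2 of 3 CLIP-seq pairs, although 13 of the 15 small RNA libraries correlated best with one of their own number. The median correlation was 0.32 for the same-numbered small RNA pairs and -0.13 for pairs that differed in number and time. With the block 68 miRNAs were called over the 5 times, against 54 without it. At 24 h PBM 33 were called, against 27, and at 36 h PBM 44, against 30. The replicate term of miR-184 had an adjusted p of 0.00204 in edgeR.

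The comparison of 48 h with 6 h PBM, -0.02 as reported, turned to 0.13 with library totals, 0.14 with a filter of 10 CPM in 3 libraries, 0.26 in limma on RPM, 0.10 with the replicate block and 0.14 without miR-281-5p, with no call in any. With 1 library left out the log2 changes ranged from -0.74 to 0.0598 for 24 h against 6 h PBM, from -0.65 to 0.39 for 36 h against 6 h, from -0.35 to 0.46 for 48 h against 6 h, from -0.23 to 0.69 for 36 h against 24 h, and from -0.31 to 0.63 for 48 h against 36 h, again with no call.

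On AGO1 the log2 change, 0.14 as reported, was -0.66 with library totals (the setting that called it), -0.31 in a table of precursors alone and -0.50 on single peaks, and from -0.0937 to 0.30 with 1 library left out. The difference between the assays turned to -0.52 at 24 h PBM and -0.60 at 72 h PE without miR-8, and its change between the times ranged from -0.21 to 0.40 with 1 library left out. The log2 change of the AGO1 share, settings for which were chosen after seeing the data, was -0.49 as a share of all peak counts and -0.74 to -0.61 with 1 library left out. The cause of these shifts was not tested. Of the 5 miRNAs most like miR-184, 4 were shared under Spearman's correlation, 4 with RPM, and 5 without 48 h PBM replicate 3. With 3 libraries a group, the spread of miR-184 between small RNA replicates was wider than its counting error. Part of that spread followed the replicate number.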
